A study of Mus musculus with 108 samples.

Results

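The 40 genes described here make proteins that carry a cell through DNA replication and division. They were chosen by name: each symbol was looked up in the deposited table of 55416 genes, each matched 1 entry, and all 40 passed the filter on low counts in each of the 3 tissues. By their roles, 17 act at the entry into S phase or in DNA replication and 23 in G2 and mitosis. The mice were C57BL/J males 8 to 12 weeks old, under 12 h of light and 12 h of darkness with food and water always at hand, and the RNA of their liver, their kidney and their white fat (labelled WAT) was sequenced. One group, labelled Bmal1-flox, serves as the control and is written flox, and the other, labelled Bmal1-iKO, is written iKO. Bmal1 is a core transcription factor of the circadian clock, and by the title of the series the study concerns the intestinal clock. The labels name neither the cells in which Bmal1 was deleted, nor the Cre driver, nor whether flox animals carried a Cre. There were 6 times of sampling, counted in hours from lights on as zeitgeber time (ZT): 2, 6, 10, 14, 18 and 22. Each tissue, genotype and time has 3 libraries, numbered 1 to 3, which makes 36 per tissue. Whether the 3 are separate animals is not in the labels, so a p-value here covers the spread among libraries, technical or biological.

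Most cells of adult liver, kidney and fat rest outside the cell cycle. On entry into S phase, E2F transcription factors switch on cyclin E, the MCM helicase that opens DNA, its loading factors and the enzymes that make nucleotides. Later, B-MYB (Mybl2) and FOXM1 switch on the genes of G2 and mitosis, which act through promoter elements called CHR (cell cycle genes homology region) together with CCAAT boxes bound by NF-Y, while the DREAM complex keeps these genes off in resting cells. Levels are given as CPM, a gene's counts scaled to the size of its library. In bulk tissue, fewer dividing cells and less RNA per cell cannot be told apart.

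The promoters of the 2 role groups hold different motifs. RefSeq (GRCm38.p6) promoters, 250 bases before to 50 after a gene's start, were at hand for 32 of the 40 genes. The search covered both strands for the CHR (TTTGAA or TTCGAA), the CCAAT box (CCAAT), E2F sites (TTTGGCGC, or TTCCCGC with or without a further T before it) and the E-box of CLOCK and BMAL1 (CACGTG). A CHR was found in 13 of 18 G2 and mitosis genes and in 2 of 14 S phase genes, against 21.7% of all 27025 genes with a promoter in the table. CCAAT boxes were found in 15 of 18 and 9 of 14, against 41.1%. E2F sites were found in 0 of 18 and 8 of 14, against 5.8%, and the E-box in 0 of 18 and 1 of 14 (Tyms), against 8.09%. A match is a description of these windows and not a bound site. Each sequence below runs 5′ to 3′ from 150 bases before to 30 after the start, with every match to these 4 motifs in capitals. The first 3 belong to mitosis genes, namely Cenpf (a kinetochore protein), Top2a (topoisomerase II alpha, which untangles chromosomes) and Cdk1 (the mitotic kinase), and they show CCAAT boxes (ATTGG on the other strand) ahead of a CHR.
Cenpf (chr1:189688057-189688236, minus strand): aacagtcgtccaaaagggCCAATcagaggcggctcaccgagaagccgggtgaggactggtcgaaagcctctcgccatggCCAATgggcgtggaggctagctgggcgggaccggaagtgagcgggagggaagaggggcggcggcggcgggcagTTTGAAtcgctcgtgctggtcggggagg
Top2a (chr11:99024160-99024339, minus strand): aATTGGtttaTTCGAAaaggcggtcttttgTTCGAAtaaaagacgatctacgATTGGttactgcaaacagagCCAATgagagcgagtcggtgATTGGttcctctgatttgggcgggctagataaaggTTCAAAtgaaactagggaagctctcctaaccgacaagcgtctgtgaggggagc
Cdk1 (chr10:69352883-69353062, minus strand): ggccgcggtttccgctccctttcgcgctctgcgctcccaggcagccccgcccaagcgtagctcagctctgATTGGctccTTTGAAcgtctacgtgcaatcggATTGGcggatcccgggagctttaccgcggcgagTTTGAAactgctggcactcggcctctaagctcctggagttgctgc

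The next 3 belong to S phase genes. Cdt1 loads the helicase onto origins, and Mcm5 and Mcm7 are subunits of that helicase. They hold an E2F match (GCGGGAA, GCGCCAAA or TTCCCGC) and no CHR in the window shown. Mcm7 has 2 promoters in the table, of which the more downstream is shown, and the other also holds a CHR.
Cdt1 (chr8:122567865-122568044, plus strand): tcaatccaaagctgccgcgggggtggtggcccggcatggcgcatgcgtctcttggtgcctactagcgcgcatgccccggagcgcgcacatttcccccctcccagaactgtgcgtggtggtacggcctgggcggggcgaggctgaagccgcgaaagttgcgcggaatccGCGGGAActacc
Mcm5 (chr8:75109359-75109538, plus strand): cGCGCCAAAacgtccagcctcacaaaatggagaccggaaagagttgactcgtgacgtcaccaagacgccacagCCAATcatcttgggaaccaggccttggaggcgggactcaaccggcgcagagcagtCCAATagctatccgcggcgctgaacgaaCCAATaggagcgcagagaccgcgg
Mcm7 (chr5:138171237-138171416, minus strand): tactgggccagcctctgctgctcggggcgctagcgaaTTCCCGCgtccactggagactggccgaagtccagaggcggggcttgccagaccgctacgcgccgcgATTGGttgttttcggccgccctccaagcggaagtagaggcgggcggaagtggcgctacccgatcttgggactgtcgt

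Library totals ran from about 14427900 to 23428500 counts in liver, 13875600 to 22123000 in kidney and 14103500 to 24414800 in WAT. Markers fitted the tissue names in liver and kidney: 6 hepatocyte markers summed to at least 75017 CPM in every liver library, and 4 proximal tubule markers to at least 7350 CPM in every kidney library. In WAT the sum of 4 adipocyte markers ran from 83.1 to 20148 CPM and that of 3 epididymis markers from 0.116 to 14370 CPM, so the makeup of the fat samples differed widely. In liver, 11 of 36 libraries stood apart from the others by a sum of 8 macrophage and Kupffer cell markers above 2000 CPM: in iKO these were numbers 1 and 2 of ZT6, of ZT14 and of ZT18 and all 3 of ZT22, and in flox number 1 of ZT6 and number 1 of ZT22. In 2 numbers, iKO ZT18 1 and iKO ZT22 3, Xist, an RNA of female cells, exceeded 100 CPM in liver although the labels call all animals male. The floxed gene Bmal1 (Arntl in the table) had medians of 13.9 CPM in flox and 11.6 in iKO liver, 9.70 and 11.3 in kidney, and 8.03 and 6.86 in WAT, each with overlapping ranges, so it gives no check of the genotype labels in these tissues. Results are also given without the 11 numbers or without those 2, where that changes them.

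In flox mice the levels of the 40 genes were low in all 3 tissues, with Pcna and subunits of the MCM helicase at the top. Per kilobase of gene length, Pcna, the sliding clamp of DNA polymerase, had the highest median over the 18 flox libraries of each tissue, at 14.2 CPM per kb in liver, 16.6 in kidney and 16.0 in WAT. Mcm7 followed in liver and WAT at 4.55 and 4.11, and in kidney Mcm6 (5.03) and Mcm7 (4.57) came next. At the low end, Cenpf had 0.0131 CPM per kb in liver, 0.0729 in kidney and 0.181 in WAT. Bub1, a kinase of the spindle checkpoint, had a median of 0 in liver.

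**Figure D1:**
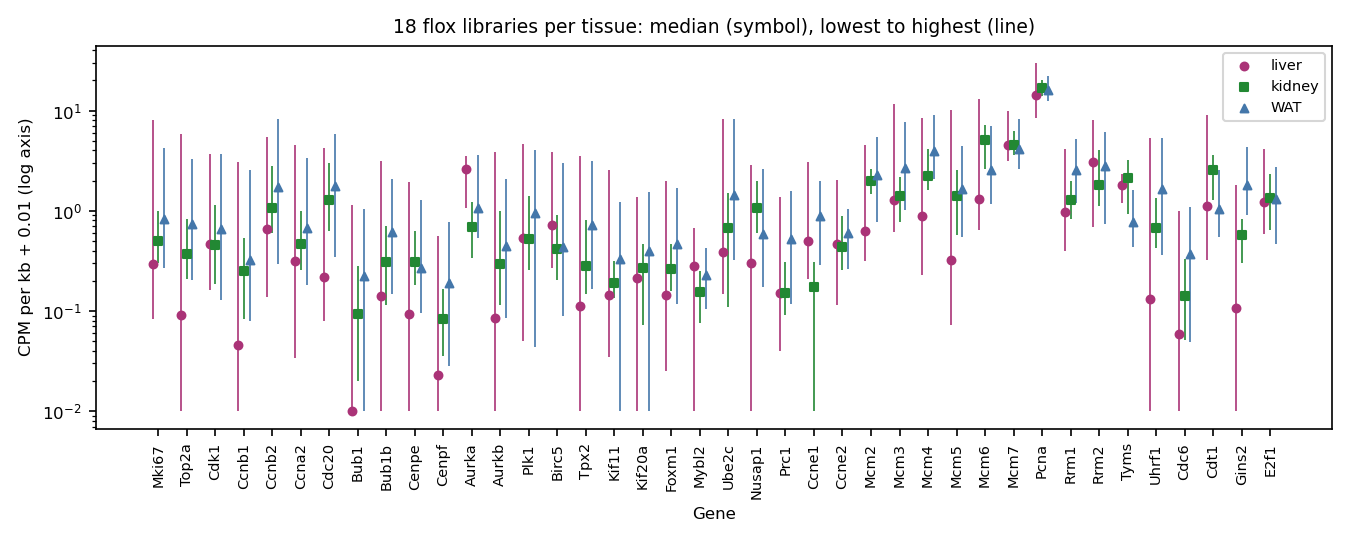
Level of each of the 40 genes in flox, as CPM per kb of gene length plus 0.01 on a log axis, with the median of 18 libraries as a symbol and the lowest to highest library as a line, for liver (circles), kidney (squares) and WAT (triangles). Pcna is highest in each tissue, with medians of 14.2, 16.6 and 16.0 CPM per kb, and most liver lines reach far above their medians.

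Set against kidney in 1 fit of all libraries over 22789 genes, 14 of the 40 genes were lower in flox liver and 5 were higher (edgeR's quasi-likelihood test, Benjamini-Hochberg adjusted p below 0.05, termed called from here on). Of all genes tested, 34% were called lower and 28.5% higher, so the share of these genes that was lower is near that of all genes and the share that was higher is below it. Their median difference was -0.25 on the log2 scale, beside -0.06 for all genes. The genes higher in liver were Ccne1 (cyclin E1, which activates CDK2 at S phase entry; 2.0 on the log2 scale), Aurka (the centrosome kinase Aurora A; 1.75), Birc5 (survivin, of the chromosomal passenger complex; 1.20), Mybl2 (0.91) and Rrm2 (the small subunit of ribonucleotide reductase; 0.76). Among those lower in liver were Cenpf (-2.29, with 1 liver group at 0), Gins2 (of the GINS complex at the fork; -1.71), Nusap1 (a spindle microtubule protein; -1.67), Cdc20 (which activates the anaphase-promoting complex; -1.46) and Mcm6 (-1.34). When the 11 numbers were left out, 25 were lower and 4 higher, with 35.3% of all genes lower and 28% higher.

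Aurka shows how clear the tissue difference can be for a single gene. In flox liver it ran from 2.65 over a median of 6.62 to 8.95 CPM, and in flox kidney from 0.824 over 1.73 to 3.05 CPM. The ranges overlap only between 2.65 and 3.05 CPM. Ccne1 ran from 0.533 over 1.30 to 8.06 CPM in flox liver and from 0 over 0.440 to 0.787 CPM in flox kidney, so the ranges overlapped only between 0.533 and 0.787.

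Against WAT, 26 of the 40 genes were lower and 3 higher in flox liver, with 45.2% of all genes called lower and 29.1% higher. In flox kidney 26 were lower and 3 higher than in WAT, where 38.4% of all genes were called lower and 25.1% higher. The medians were -1.17 for liver minus WAT, beside -0.40 for all genes, and -0.92 for kidney minus WAT, beside -0.26. Tyms, the thymidylate synthase, was called higher in both liver (1.08) and kidney (1.28) than in WAT. Kidney and liver are compared here with the same WAT libraries. The shift of all genes in these contrasts and the mixed makeup of the WAT samples move with these values, and their part in them was not tested.

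In liver the levels of the 40 genes differed widely among the libraries of each genotype. The summed CPM of the 40 genes ran from 112 over a median of 134 to 855 in flox, and from 109 over 381 to 929 in iKO. The libraries fell apart by the 11 numbers and not by genotype alone: the sum ran from 611 over 758 to 929 CPM in the 11 libraries and from 109 over 130 to 211 CPM in the other 25, with no overlap. Of the 11, 9 were iKO and 2 were flox, and both flox libraries lay in the range of the iKO ones.

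**Figure D2:**
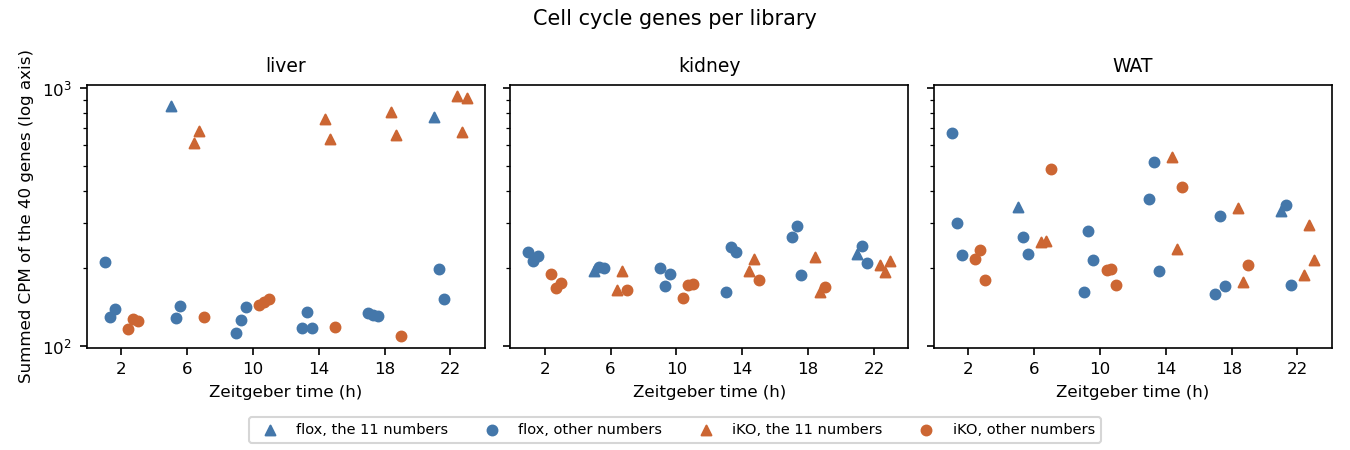
Summed CPM of the 40 genes in each library (log axis) against zeitgeber time in hours, for liver, kidney and WAT, with flox in blue, iKO in orange, triangles for the 11 numbers and circles for the others. In liver the triangles sit between 611 and 929 CPM and the circles between 109 and 211, while in kidney and WAT triangles and circles overlap.

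Gene by gene, all 11 libraries lay above all 25 others for 33 of the 40 genes, where 5.48% of all 21459 genes compared did so. The 11 were chosen by macrophage markers and not by these genes, but that these genes are high in them was known when they were chosen, so the values are a description. Mki67, which marks cycling cells, had a median of 56.1 CPM in the 11 and 2.41 in the 25, and its lowest value in the 11 (47.7) was above its highest in the 25 (7.50). Top2a had medians of 39.8 and 0.714 CPM, and Ccnb1, the main mitotic cyclin, of 8.46 and 0.129. The helicase subunit Mcm5 had medians of 35.4 and 1.2 CPM. Pcna stood at 71.6 against 28.5 CPM, a much smaller ratio from a higher base.

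Of the 33 genes, the helicase subunits Mcm2, Mcm3, Mcm4 and Mcm6 had medians of 26.2, 37.8, 23.6 and 49.1 CPM in the 11 and of 3.01, 4.21, 2.59 and 4.79 CPM in the 25. Rrm1, the large subunit of ribonucleotide reductase, had 42.7 and 9.10 CPM. Kif11, the motor that separates spindle poles, stood at 12.3 against 1.03 CPM, Cenpe, a kinetochore motor, at 9.23 against 0.531, and Plk1, a mitotic kinase, at 8.42 against 0.976. The helicase subunit Mcm7 and the spindle kinase Aurka, by contrast, had overlapping ranges.

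The 7 genes whose ranges overlapped were Ccne1, Ccne2, Aurka, Mcm7, Rrm2, Tyms and Mybl2. Of these, Tyms had medians of 13.8 and 10.7 CPM in the 11 and the 25, and Aurka of 8.95 and 6.13. So 5 of the 7 were genes of S phase entry and replication. The transcription factors split as well: E2f1 (10.6 against 3.74 CPM) and Foxm1 (9.28 against 0.470 CPM) did not overlap, while Mybl2 (3.07 against 1.24 CPM) did.

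**Figure D3:**
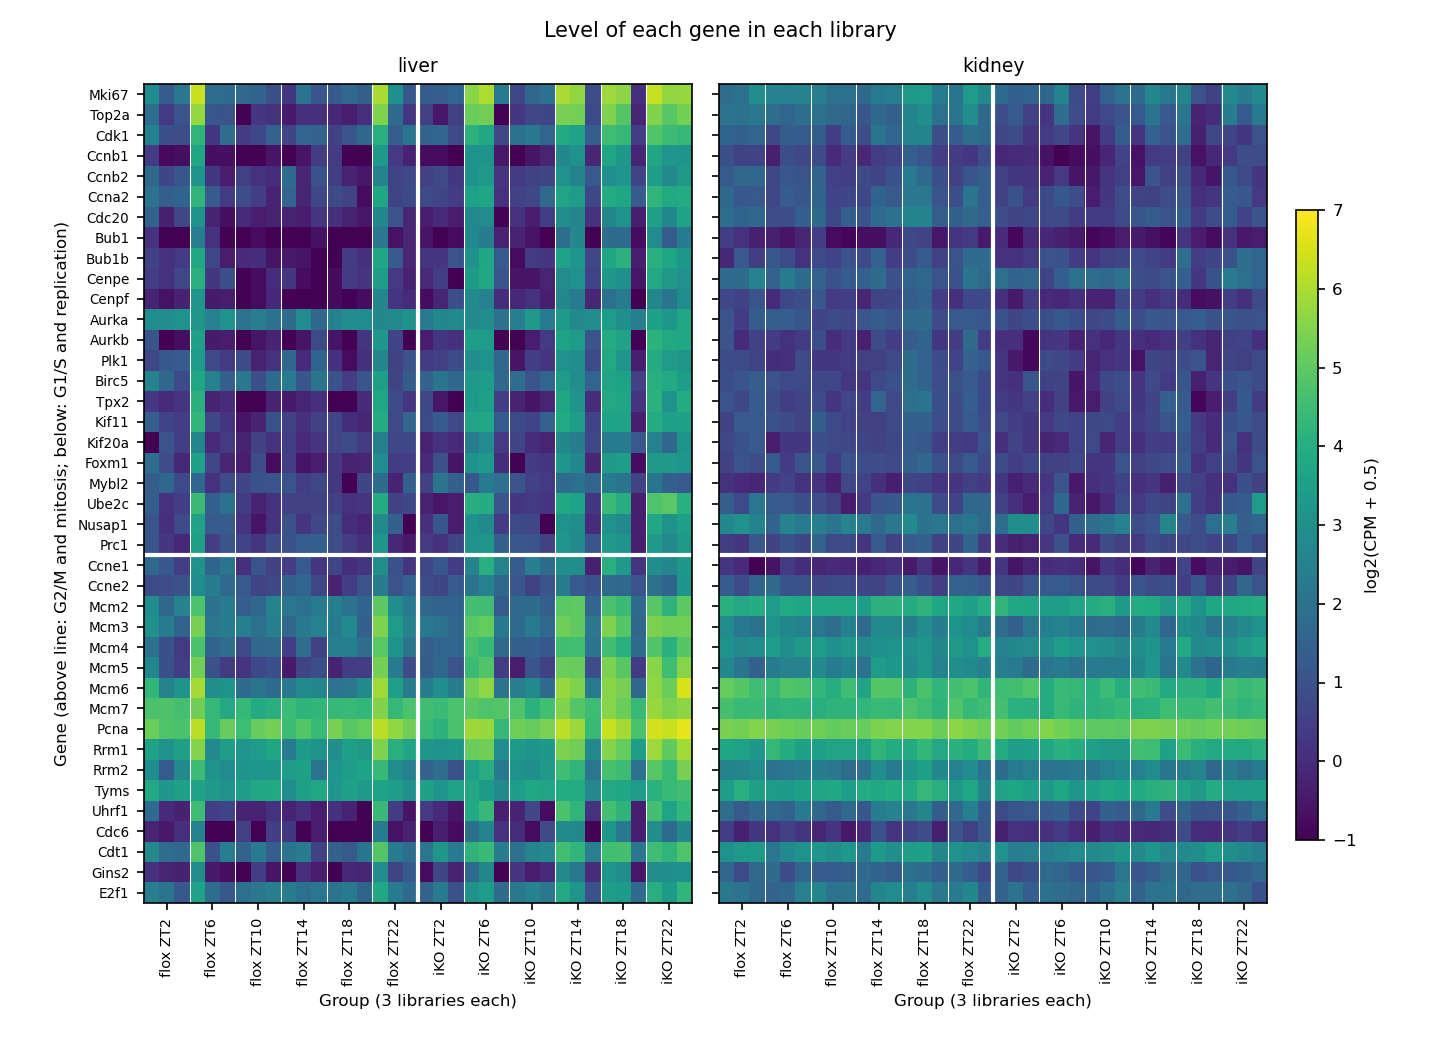
Level of each of the 40 genes (rows) in each library (columns, 3 per group, flox then iKO by time) as log2(CPM + 0.5), for liver and kidney, with mitosis genes above the white horizontal line and replication genes below it. The 11 liver libraries appear as bright columns over nearly all genes, and no such columns appear in kidney.

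Other markers moved with these genes in the same libraries. The 8 macrophage and Kupffer cell markers, by which the 11 were chosen, summed to 3008 to 5280 CPM in the 11 and 88.6 to 1518 in the 25. Adgre1, Cd68 and 3 more of the 8 did not overlap. The 4 monocyte markers summed to 190 to 854 against 6.08 to 98.9 CPM, and 4 of 4 did not overlap. The 8 interferon-stimulated genes summed to 926 to 2792 against 128 to 530 CPM. Of 4 endothelial markers, Pecam1 (medians of 53.6 and 12.5 CPM) and Cdh5 (130 and 17.0 CPM) did not overlap. The other endothelial markers, Stab2 and Kdr, had lower medians in the 11. Every marker of NK cells, T cells, B cells and neutrophils had a higher median in the 11, each with overlap. Mitochondrially encoded genes held 2.43 to 6.57% of counts in the 11 and 4.86 to 30.6% in the 25, and hepatocyte markers 75017 to 166680 against 81366 to 206110 CPM. Single hepatocyte markers went both ways. Alb, Apoa1, Apob and Serpina1a had lower medians in the 11, and Ttr and Cps1 higher ones. Serpina1a (999 against 5923 CPM) did not overlap, Apoa1 had medians of 4151 and 24935 CPM, and Cps1 of 8352 and 1775 CPM. None of these macrophage, monocyte, interferon-stimulated or hepatocyte markers was at 0 in all 11. The part of other cells in the levels of the cell cycle genes was not tested.

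The kidney libraries that carry the same 11 numbers did not share the pattern. Their 40 genes summed to 162 to 226 CPM, within the 153 to 292 CPM of the other 25 kidney libraries. Their interferon-stimulated genes, however, summed to 316 to 2091 CPM against 43.9 to 310 in the others, with no overlap. In WAT the sums of the 40 genes were 177 to 542 CPM in the 11 numbers and 159 to 673 in the others.

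Averaged over the 6 times, 5 of the 40 genes rose in iKO liver and none fell, where 1.09% of the 16582 genes tested rose. All 40 fitted differences were above 0, with a median of 1.24 on the log2 scale, beside 0.00 for all genes. The median was 1.37 for the 23 mitosis genes (2 called) and 0.95 for the 17 replication genes (3 called), and 35 of the 40 had an unadjusted p below 0.05, as did 24.6% of all genes. With the 11 numbers left out, which leaves 5 times and fewer libraries, none of the 40 rose, 15 were above 0 and the median was -0.13. Without the 2 Xist numbers Cenpf alone rose, with 0.47% of all genes. Leaving out 1 library gave 1 to 36 called genes, with 36 without flox ZT6 1 and 31 without flox ZT22 1, fits that called 19.7% and 15.1% of all genes in either direction. DESeq2, the other count model run, called 24 of the 40 higher, where it called 5.07% of all genes higher.

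Cenpf was the liver gene with the smallest p. It ran from 0 over a median of 0.202 to 8.51 CPM in the 18 flox libraries and from 0 over 2.34 to 6.91 CPM in the 18 iKO libraries. At ZT14 it was 0 in all 3 flox libraries, against 5.94, 4.51 and 0.411 CPM in iKO, so its fitted rise of 2.95 on the log2 scale (adjusted p = 0.0206, edgeR) depends on the prior count and is no bound. Against a floor of 3 counts over the flox group, Cenpf was at least 35.2-fold higher at ZT14, and with that bound its average rise was 2.39. Both flox and iKO libraries among the 11 were high, and the rest of the genotypes overlapped.

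Ccne1 ran from 0.533 over 1.30 to 8.06 CPM in flox liver and from 0.309 over 5.47 to 15.6 CPM in iKO, a log2 rise of 1.45 (SE 0.36, adjusted p = 0.0286, edgeR). At ZT10, a time that none of the 11 belong to, it was 0.552, 1.61 and 0.973 CPM in flox and 1.94, 4.91 and 3.07 CPM in iKO, without overlap. All iKO libraries lay above all flox ones at ZT10 for 2 of the 40 genes, and the share of all genes was not computed. The fitted difference of Ccne1 at ZT10 was 1.63 (SE 0.90, adjusted p = 0.995, edgeR) and was not called. At ZT2 it was 2.77, 1.73 and 0.904 CPM in flox and 1.13, 1.78 and 0.830 in iKO, and the groups overlapped. Without the 11 numbers its average difference was -0.0097 on the log2 scale. Of the 36 fits that left out 1 library, 29 called Ccne1.

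Bub1b, a kinase-like protein of the spindle checkpoint, ran from 0 over 0.563 to 13.3 CPM in flox liver and from 0.0882 over 4.98 to 17.2 CPM in iKO. It rose by 2.08 (SE 0.53, adjusted p = 0.0328, edgeR), and 22 of the 36 fits that left out 1 library called it. Cdt1 ran from 0.977 over 3.45 to 28.6 CPM in flox and from 3.44 over 13.4 to 27.3 CPM in iKO. It rose by 1.26 (SE 0.34, adjusted p = 0.0418, edgeR), and 9 of the 36 fits that left out 1 library called it. For both genes flox ZT6 1 and flox ZT22 1 were as high as the high iKO libraries, and for Cdt1 flox ZT22 1 was above every iKO library, so the ranges overlapped. Without the 11 numbers the differences were 0.87 (SE 0.55) for Bub1b and 0.65 (SE 0.29) for Cdt1, neither of them called.

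Mcm7 had the smallest of the 5 rises and the steadiest levels. It ran from 13.8 over 20.2 to 44.1 CPM in flox liver and from 16.7 over 27.8 to 53.9 CPM in iKO, a rise of 0.45 (SE 0.12, adjusted p = 0.0464, edgeR). At ZT22 it was 44.1, 19.6 and 26.0 CPM in flox and 53.9, 42.8 and 48.7 in iKO. Only flox ZT22 1 reached the iKO values there. Of the 36 fits that left out 1 library, 6 called Mcm7, with adjusted p from 0.00461 to 0.0909 (edgeR). Without the 11 numbers the difference was 0.28 (SE 0.12) and was not called.

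The other members that represent their roles were not called in liver. Mki67 differed by 1.5 (SE 0.52), Top2a by 2.16 (SE 0.65), Cdk1 by 1.37 (SE 0.40) and Ccnb1 by 1.60 (SE 0.83). Mcm5 differed by 1.82 (SE 0.56), Pcna by 0.38 (SE 0.17) and E2f1 by 0.55 (SE 0.27). Foxm1 differed by 1.32 (SE 0.54), Mybl2 by 0.84 (SE 0.30) and Rrm2 by 0.24 (SE 0.26). Libraries of a group spread widely: the median within-group SD of log2 CPM was 1.34 for the 40 genes and 0.605 for all genes in liver.

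Mki67 shows that spread in every liver library. At ZT18 it was 2.01, 2.84 and 2.16 CPM in flox and 56.1, 48.2 and 0.579 CPM in iKO. At ZT6 it was 80.1, 3.21 and 2.96 CPM in flox and 47.7, 63.6 and 4.43 CPM in iKO. Groups of 3 thus held both levels, and at ZT6 the highest library of all was a flox one. At ZT2 the values were 6.85, 1.97 and 4.07 CPM in flox and 2.07, 2.18 and 2.58 CPM in iKO, and all 6 were low.

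**Figure D4:**
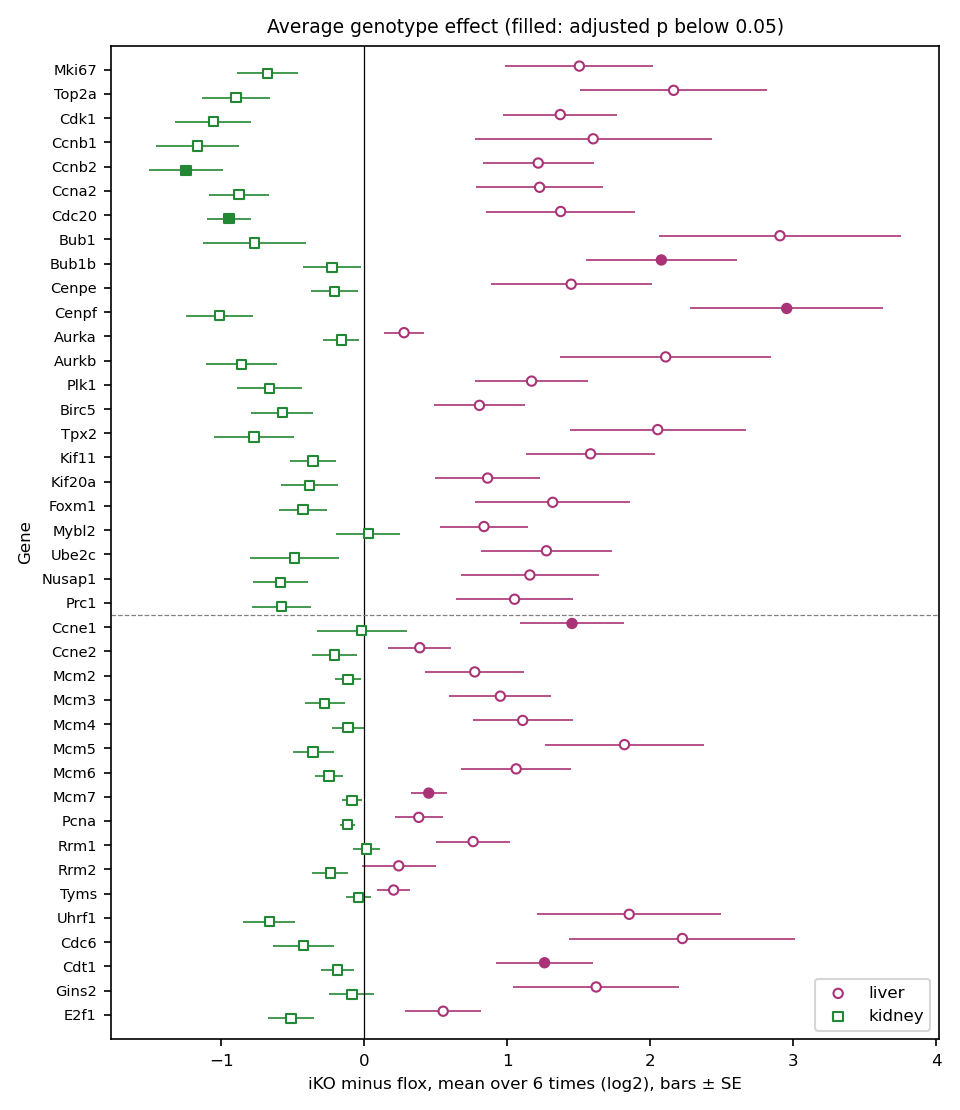
Genotype difference, iKO minus flox, as the mean over 6 times on the log2 scale with SE, for each of the 40 genes in liver (circles) and kidney (squares), with called genes filled, mitosis genes above the dashed line and replication genes below it. All 40 liver values are above 0 and 38 of 40 kidney values are below 0; in liver the values of Cenpf, Bub1 and Cdc6, with 1 flox group at 0 each, depend on the prior count.

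By time of day, the fitted liver differences were highest at ZT14 and ZT18. The median over the 40 genes was 2.52 at ZT14 and 3.38 at ZT18 on the log2 scale, against 1.36 at ZT22, -0.42 at ZT2, 0.39 at ZT6 and 0.31 at ZT10. These medians stay the same when Cenpf at ZT14 and Bub1 and Cdc6 at ZT18, whose flox groups were at 0, are set to their bounds. With edgeR no member was called at any single time, with 30 genes at an unadjusted p below 0.05 at ZT14, 33 at ZT18 and 6 at ZT22, where 19.9%, 19.8% and 3.44% of all genes had one. At ZT18 0.0362% of all genes were called. DESeq2 called 25 of the 40 higher at ZT18, where it called 6.58% of all genes higher. A genotype difference that varies with time was called for none of the 40 by edgeR (7 at an unadjusted p below 0.05, with 6.45% of all genes) or DESeq2 (19, with 11.1%).

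The 11 libraries were unevenly spread over those times. ZT14 and ZT18 each held 2 of them in iKO and none in flox, and ZT2 and ZT10 held none. Without these 11, and with groups at 0 set to their bounds, the median difference was 0.047 at ZT14 and -0.24 at ZT18, with 0.0031 at ZT6, 0.30 at ZT10 and -0.42 at ZT2. Just 1 iKO library stands behind each of the ZT6, ZT14 and ZT18 values, and ZT22 had none left.

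Without the 11 numbers the gene called among the 40 in liver was Rrm2, which fell by 0.93 (SE 0.25, adjusted p = 0.0209, edgeR), where 4.05% of all genes fell. Its levels over all libraries ran from 1.89 over 8.47 to 22 CPM in flox and from 1.48 over 10.4 to 40.8 CPM in iKO. Mcm2, a further helicase subunit, differed by -0.64 and Ube2c, the ubiquitin-conjugating enzyme of mitotic exit, by -0.84, neither called. With the 7 genes that then had a group at 0 set to their bounds, the median of the 40 was -0.07 and 17 were above 0.

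No member was called rhythmic by the fit of a 24 h cosine and sine in liver, in flox (0.772% of all genes called) or iKO (0.0844%). At an unadjusted p below 0.05 were 11 members in flox and 2 in iKO, with 14.9% and 12.2% of all genes. In flox, Cenpf, Top2a and Bub1b had the smallest p among mitosis genes, with fitted peaks at 2.40, 2.15 and 1.94 h after lights on, between the 2 high flox libraries at ZT22 and ZT6. With time as a factor, 4 members were called in flox (Top2a, Ccne2, Cenpf and Tpx2), with 4.11% of all genes. In iKO 10 were called, with 11.6% of all genes, among them Ube2c, Rrm2, Mcm2, Pcna and Plk1. The unequal number of the 11 libraries per time moves with these calls, and its part in them was not tested.

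In kidney most fitted differences had the opposite sign. Averaged over the 6 times, 2 of the 40 genes fell in iKO, Cdc20 and Ccnb2 (cyclin B2), both of mitosis, and none rose, where 0.0908% of the 17630 genes tested fell. Of the 40, 38 were below 0, with a median of -0.40 on the log2 scale beside -0.0024 for all genes, and 22 had an unadjusted p below 0.05, as did 9.43% of all genes. The 23 mitosis genes had a median of -0.66 and the 17 replication genes of -0.19. Summed CPM of the 40 genes ran from 162 over 211 to 292 in flox and from 153 over 178 to 221 in iKO.

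Cdc20 ran from 1.15 over 2.38 to 5.63 CPM in the 18 flox kidney libraries and from 0.785 over 1.29 to 2.04 CPM in the 18 iKO ones. At ZT2 it was 3.17, 2.47 and 2.74 CPM in flox and 1.37, 1.04 and 1.11 CPM in iKO, and at ZT18 5.63, 5.42 and 2.18 CPM in flox and 2.01, 0.785 and 1.37 CPM in iKO. At both times every iKO library lay below every flox one. Its mean fell from 2.65 ± 1.22 to 1.34 ± 0.421 CPM (SD, n = 18 each). The drop was 0.95 on the log2 scale (value -0.95, SE 0.16, adjusted p = 0.00792, edgeR), and it was called in each of the 36 fits that left out 1 library.

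Ccnb2 ran from 0.907 over 1.62 to 4.30 CPM in flox kidney and from 0.189 over 0.723 to 1.81 CPM in iKO. At ZT6 it was 1.15, 1.74 and 1.62 CPM in flox and 0.355, 0.756 and 0.189 CPM in iKO, again without overlap, while at ZT22 the groups overlapped. The difference was -1.25 (SE 0.26, adjusted p = 0.0349, edgeR), and 20 of the 36 fits that left out 1 library called it, with adjusted p from 0.0118 to 0.0826.

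**Figure D5:**
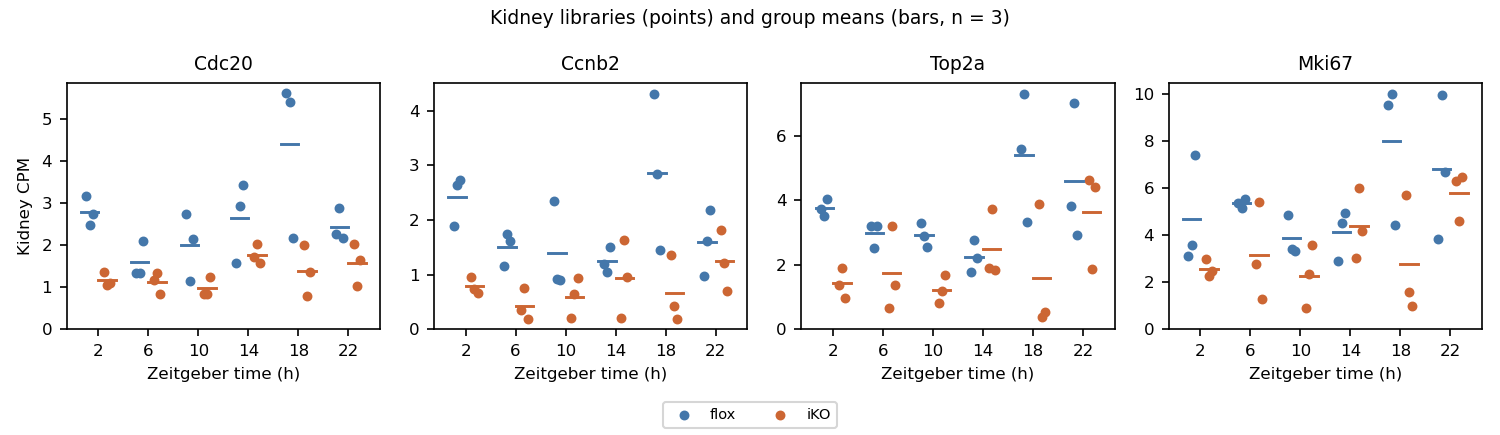
CPM of Cdc20, Ccnb2, Top2a and Mki67 in each kidney library (points) with group means of 3 libraries (bars), against zeitgeber time in hours, for flox (blue) and iKO (orange). Cdc20 and Ccnb2 are lower in iKO at each time by their means, and the flox libraries reach furthest up at ZT18, to 5.63 and 4.30 CPM.

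The other mitosis genes of the kidney had differences of like size without a call. Ccnb1 differed by -1.17 (SE 0.29), Cdk1 by -1.05 (SE 0.27), Cenpf by -1.01 (SE 0.24), Top2a by -0.90 (SE 0.24), Ccna2 (cyclin A2) by -0.88 (SE 0.21) and Mki67 by -0.68 (SE 0.21). Top2a ran from 1.77 over 3.25 to 7.28 CPM in flox and from 0.366 over 1.75 to 4.61 CPM in iKO, and Cdk1 from 0.872 over 2.19 to 5.58 and from 0.170 over 1.08 to 3.13 CPM. In both, iKO libraries reached below the lowest flox library. Of the replication genes, Uhrf1 (which keeps DNA methylation through replication) differed by -0.66, E2f1 by -0.51, Mcm5 by -0.36 and Pcna by -0.12. DESeq2 called 9 of the 40 lower, where it called 0.596% of all genes lower: Top2a, Cdk1, Ccnb1, Ccnb2, Ccna2, Cdc20, Cenpf, Aurkb and Uhrf1.

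Without the 11 numbers 5 times keep both genotypes in kidney, with 1 iKO library at each of ZT6, ZT14 and ZT18. The fitted differences were then -2.03 for Ccnb2, -1.47 for Top2a, -1.32 for Mki67 and -1.14 for Cdc20. The median of the 40 was -0.55. Without the 2 numbers with Xist 5 of the kidney genes fell, where 0.0851% of all genes fell: Top2a, Cdk1, Ccnb2, Cdc20 and Cenpf. Leaving out 1 library gave 1 to 7 called genes, with 7 without iKO ZT18 1 and 6 without iKO ZT10 3, where 0.170% and 0.187% of all genes were called in either direction. Kidney cell markers overlapped between the genotypes, with 4 proximal tubule markers at 8047 to 54287 CPM in flox and 7350 to 42026 in iKO, and 8 macrophage markers at 49.1 to 146 and 48.7 to 301 CPM. Interferon-stimulated genes summed to 47.4 to 1237 CPM in flox and 43.9 to 2091 in iKO. Their part in the fall of the mitosis genes was not tested.

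At single times no member was called in kidney, and the medians were lowest at ZT18 (-0.73) and ZT2 (-0.63), and at the other times lay between -0.36 (ZT6 and ZT10) and -0.21 (ZT22), with -0.27 at ZT14. All 3 iKO libraries lay below all 3 flox ones for 15 of the 40 genes at ZT2, where 5.07% of all genes did so, for 9 at ZT6 (3.24%) and for 8 at ZT18 (9.72%). At ZT10, ZT14 and ZT22 this held for 2, 1 and 5 of the 40, with 7.58%, 6.96% and 5.23% of all genes. Unadjusted p was below 0.05 for 8 genes at ZT2 and 16 at ZT18, with 6.47% and 14.2% of all genes. The counts were 3 at ZT6 and 2 at ZT10, with 1096 and 513 of all 17630 genes. They were 0 at ZT14 and 0 at ZT22, with 1236 and 1512 of all 17630 genes. As for rhythm, 5.07% of all genes were called in flox kidney and 4.22% in iKO, but no member. At an unadjusted p below 0.05 were 6 and 2 members, fewer in proportion than the 22.3% and 22.5% of all genes. Mcm7 had the smallest p in flox, with an amplitude of 0.24 on the log2 scale and a peak at 21.5 h, and an adjusted p of 0.057 in edgeR.

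The genotype difference itself was tested between liver and kidney in the fit of all libraries. It was higher in liver for 15 of the 40 genes and lower for none, where 0.246% of the 22789 genes tested were called higher. The median over the 40 was 1.74 on the log2 scale, beside 0.00 for all genes, and 11 of the 15 were mitosis genes. For Top2a the tested difference was 3.07 (SE 0.65, adjusted p = 0.0117, edgeR), from 2.16 in liver and -0.90 in kidney, for Cdk1 2.43 (SE 0.53), for Ccnb2 2.48 (SE 0.53) and for Mcm5 2.18 (SE 0.52). With the 11 numbers left out, which leaves 1 iKO liver library at each of ZT6, ZT14 and ZT18, the median was 0.50. Ccnb2 then differed by 2.29 (SE 0.64), which is far above that median and not typical of the 40 genes. That value also holds the fall of Ccnb2 in kidney. Without replicate 2 of every group none of the 40 was called, with a median of 1.31 and 21 at an unadjusted p below 0.05. That fit called 0 of all 22789 genes. Both fits have fewer libraries, and how far that accounts for the lower medians and the lost calls was not tested. DESeq2 called 27 of the 40 higher, where it called 1.09% of all genes higher.

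Tpx2, which activates Aurora A on the spindle, ran from 0 over 0.482 to 16.5 CPM in flox liver and from 0 over 4.58 to 16.8 CPM in iKO, against 0.643 over 1.28 to 3.72 CPM in flox kidney and 0.0523 over 0.850 to 2.23 CPM in iKO. Its tested difference between the tissues was 2.84 (SE 0.63, adjusted p = 0.0166, edgeR). Aurkb, the kinase of the chromosomal passenger complex, ran from 0 over 0.219 to 11.4 CPM in flox liver and from 0 over 5.78 to 17.4 CPM in iKO, and from 0.309 over 0.829 to 2.88 and 0.0656 over 0.582 to 1.03 CPM in kidney. In liver the genotypes of both genes share their lowest values and part at the median, while in kidney the iKO ranges lie lower at both ends. The fitted value of Aurkb without the 11 numbers was -0.54, but with 2 iKO liver groups at 0 it depends on the prior count.

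The 25 genes without a call in this test held the remaining S phase genes and 12 mitosis genes. Among them were Kif11, with 1.58 in liver and -0.36 in kidney on the log2 scale, Cenpe with 1.45 and -0.21, Prc1 (a protein of the central spindle) with 1.05 and -0.58, and Kif20a (a motor of cytokinesis) with 0.86 and -0.38. Of the replication genes, Mcm3 had 0.95 and -0.28, Mcm4 1.11 and -0.11, Rrm1 0.76 and 0.015, and Tyms 0.21 and -0.04. None of these 8 was called in either tissue by its own average.

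In WAT no member was called, nor any other gene (0% of 21402) by the average effect. The median was -0.17, with 35 of the 40 below 0. Rrm2 was the member with an unadjusted p below 0.05 (-0.67, SE 0.28, adjusted p = 1.0, edgeR), and DESeq2 called none. Mki67 ran from 2.57 over 8.14 to 42.0 CPM in flox WAT and from 1.32 over 6.90 to 28.7 CPM in iKO, and Cdk1 from 0.581 over 3.20 to 18.2 and from 1.12 over 2.74 to 10.5 CPM. The genotypes overlapped almost fully. At ZT2 all 40 differences were below 0, with a median of -1.15, and 5 genes at an unadjusted p below 0.05, with 2.19% of all genes. Several marker lists had negative medians at that time as well: -1.08 for macrophages (1 of 7 above 0), -0.98 for cholangiocytes (0 of 5), -0.81 for monocytes (1 of 4), -0.75 for stellate cells and fibroblasts (1 of 5), -0.58 for endothelial cells (1 of 4) and -0.56 for NK cells (0 of 4), none with a called gene, while adipocyte markers stood at 0.58 (3 of 4). Their part in the members' values was not tested. The median within-group SD was 0.936 on the log2 scale, against 0.553 in kidney.

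Related genes outside the 40 were also tested. Of all 16582 genes tested in liver, 180 (1.09%) rose on average and 258 fell. Of 48 further mitosis genes in liver, 4 rose on average: Cenpa (the centromeric histone, 0.71), Spc25 (of the kinetochore, 1.05), Nek2 (a centrosome kinase, 1.08) and Sgo1 (shugoshin, which guards centromeric cohesion, 2.56), and their median was 1.17. Of 40 further replication genes 1 rose, Cdc7 (the kinase that fires origins, 1.49), with a median of 0.29. Of 22 G1 cyclins, kinases and inhibitors 1 rose, Ccnd3 (cyclin D3, 0.39), and of 13 E2F and DREAM factors tested 1 rose, E2f8 (an E2F repressor, 1.09). Of 17 p53 target and damage genes, Gadd45b (0.89) and Gadd45g (1.07) rose and Gadd45a fell by 0.81. In kidney none of these was called, where 29 of all 17630 genes were.

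Some cell cycle genes are known to be linked to the clock, and 4 were looked at whatever their result. Wee1, the kinase that holds CDK1 inactive and a textbook clock target, differed by 0.17 (SE 0.25) in liver and by -0.24 (SE 0.17) in kidney. Cdkn1a, the CDK inhibitor p21, differed by 1.25 (SE 0.43) and 0.73 (SE 0.31), Ccnd1, cyclin D1, by 1.49 (SE 0.50) and -0.62 (SE 0.15), and Myc by 0.36 (SE 0.21) and 0.40 (SE 0.14). None of the 4 was called in either tissue. The liver minus kidney difference was called for Ccnd1 (2.11, SE 0.52, adjusted p = 0.0375, edgeR), as it was for 9 of the 48 mitosis genes and 1 of the 40 replication genes. Of all genes tested, 0.246% were called higher.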

How the data were processed

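RNA-seq was measured in 36 libraries per tissue. The authors deposited 1 table of raw counts (whole numbers of reads for each gene). The submitters' processing notes name featureCounts 1.5.0-p3, HISAT2 2.0.4, DESeq2 1.16.1 and the build GRCm38 (mm10). Settings, strand included, are not stated in the material used, so overlapping and antisense genes cannot be told apart. Gene coordinates of the table are not printed, since only 2 of 35 RefSeq GRCm38.p6 promoters of these genes lay within 1000 bases of them.

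Groups came from the labels. Per tissue, filterByExpr over 12 groups set which genes were tested, TMM the scaling, and edgeR 4.0.16 (R 4.3.3; robust glmQLFit, glmQLFTest) fitted 1 mean per genotype and time. A gene was called at a Benjamini-Hochberg adjusted p below 0.05, with every tested gene in the adjustment. The average effect is the mean of 6 differences. Tissues were compared in 1 fit of 36 groups, and rhythm in a fit of a 24 h cosine and sine per genotype. CPM use 1 TMM scaling of all libraries and fold changes the fits, and log2 CPM a prior count of 2. Scripts were tested on simulated counts. No 2 libraries of a group agreed within sampling noise (lowest chi-square per degree of freedom 10.55).

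Members and lists were chosen with earlier results of these data known. Named in full were members called in a comparison (up to 8, by smallest p) and 1 representative per role, of other lists up to 4 called genes, and in addition Cdkn1a, Wee1, Ccnd1 and Myc. Alternatives were the replicate number as a block, time as a factor, each library left out, no filter, DESeq2 1.42.0 and its size factors. In the fit of all libraries the block was genotype, time and number together, shared by the tissues. Fits without the 11 numbers (liver macrophage marker sum above 2000 CPM) and without the 2 numbers with Xist were added after the data were seen. The 8 members without a RefSeq promoter entry were not used for sequence.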

Additional observations from a re-analysis of the deposited data

Results flagged for a closer look

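The genotype difference, iKO minus flox averaged over the day, was larger in liver than in kidney for 15 genes by a test of that difference itself (edgeR, 36 groups, adjusted over all genes). In log2 units the liver minus kidney value was 4.10 for Cenpf, 3.82 for Bub1, 3.07 for Top2a, 2.98 for Aurkb, 2.84 for Tpx2, 2.77 for Cdc6, 2.48 for Ccnb2, 2.43 for Cdk1, 2.33 for Cdc20, 2.31 for Bub1b, 2.19 for Mki67 and 2.11 for Ccna2. Among replication genes it was also 2.52 for Uhrf1, 2.18 for Mcm5 and 1.46 for Cdt1. For Cenpf, Bub1 and Cdc6, 1 flox liver group was at 0 in all 3 libraries, so these fitted values depend on the prior count. None of the 15 was called without replicate 2, a fit that called 0 of all 22789 genes. Without the 11 numbers the median of the 40 genes was 0.50, beside 1.74 with all libraries.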

How the results depend on the processing

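Counts below are of the 40 genes. The liver average (5 called) was 2 without a filter, 1 without the 11 numbers (a fall), 1 without the 2 Xist numbers, 24 by DESeq2, and 1 to 36 with 1 library left out: 36 without flox ZT6 1 (19.7% of all genes called), 31 without flox ZT22 1 (15.1%), 26 without iKO ZT18 3 (12.5%), 24 without iKO ZT6 3 (12.1%) and 15 without iKO ZT14 3 (6.95%), and 1 to 5 otherwise. At single liver times (0) DESeq2 summed to 33, with 2.92% of all genes called at ZT14 and 8.35% at ZT18, and leaving out a library gave 0 to 27, the last at ZT18 without iKO ZT18 3 (11.4%). Liver rhythm (0) was 4 in flox (4.11%) and 10 in iKO (11.6%) with time as a factor. The kidney average (2) was 4 without the 11 numbers, 5 without the Xist numbers, 9 by DESeq2 and 1 to 7 with a library left out (7 without iKO ZT18 1, 6 without iKO ZT10 3, 5 without flox ZT6 1, 4 without flox ZT22 1). Single kidney times (0) gave 1 without the Xist numbers, 2 by DESeq2 and 0 to 1 with a library left out. Kidney rhythm (0) gave 2 in flox without the 11 numbers, where 9.61% of all genes were called, and 7 in iKO with time as a factor, where 7058 of 17630 were, both smaller shares of the members than of all genes. Flox liver minus kidney (19) was 29 without the 11 numbers and 10 to 24 with a replicate left out, liver minus WAT (29) 17 to 32, and kidney minus WAT (29) 8 to 29. The liver minus kidney effect (15) was 27 by DESeq2, 7 without a filter, 0 without the 11 numbers, 6 without the Xist numbers and 0 to 19 with a replicate left out. The fitted sign changed without the 11 numbers for Ccne1 in liver (-0.0097), and for Cdc20 (-0.11) and Aurkb (-0.54) in the liver minus kidney effect. The last 2 have liver groups at 0: with these at their bounds the liver effect alone was -0.22 for Cdc20 and 0.51 for Aurkb, beside kidney effects of -1.14 and -1.08, so no reversal can be read from them. Counts with no alternative given here stayed within 1.5 times. The cause was not tested. With the replicate number as a block the liver average called 15. With genotype, time and number together as a block shared by the tissues, kidney minus WAT called 17. These fits called 796 of 16582 and 14005 of 22789 genes. Of all genes, the liver average called 438, against 218 without a filter and 201 without the Xist numbers. With a replicate left out, flox liver minus kidney called 12220 to 13026 of the 22789 genes. Liver minus WAT called 14458 to 15773 and kidney minus WAT 11312 to 13383. The liver minus kidney effect called 90 genes, 40 without a filter and 0 to 128 with a replicate left out. In the main fits the numbers were not taken as pairs, since not every pair's correlation of deviations was above 0.1. It was in 6 of 18 genotype pairs in liver, 6 of 18 in kidney and 9 of 18 in WAT. Between tissues it was in 11 of 36 for liver and kidney (median 0.0698), 3 of 36 for liver and WAT and 6 of 36 for kidney and WAT. Interferon-stimulated genes of the 11 numbers were high in liver and kidney alike, and whether these numbers mark the same animals was not tested. Low counts limit, among others, Cenpf, Bub1 and Cdc6 in liver, where 1 flox group each was at 0. In the 25 liver libraries Ccnb1, Aurkb and Tpx2 also reached 0, with medians of 0.129, 0.247 and 0.396 CPM.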
